A study of Mus musculus with 6 samples.

Results

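The alveolar fibroblast and lipofibroblast genes followed here are Tcf21, Fgfr4, Npnt, Inmt, Limch1, Gyg, Macf1, Mettl7a1, G0s2 and Cdo1. They were taken by gene symbol from the deposited expression table, and all 10 symbols were found among its 23284 genes. Lungs were compared by RNA-seq at 6 weeks of age between 3 Fra-2tg mice, which carry a transgene for the AP-1 transcription factor Fra-2, and 3 wild-type littermates (WT). Both groups were on the C57BL/6 background, and neither was given a treatment in the labels. None of the sources used here names the promoter that drives the transgene. Values are FPKM, fragment numbers divided by transcript length and sequencing yield, so levels can be set beside each other between genes of different length. Since RNA came from lung tissue and not from sorted cells, fewer cells of a type and less RNA per cell cannot be told apart in any result below.

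Alveolar fibroblasts lie in the interstitium of the alveolar walls, close to the epithelium and the capillaries. A subset of them, the lipofibroblasts, stores neutral lipid in droplets and hands it to type 2 epithelial cells for the making of surfactant. TCF21, a basic helix-loop-helix transcription factor, marks this lineage from the embryonic lung mesenchyme on, and it acts at E-box motifs in pairs with E proteins.

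Within groups the libraries correlated across genes at 0.974 to 0.981 in Fra-2tg and at 0.968 to 0.974 in WT, and between groups at 0.932 to 0.961. Read counts were not among the values, so the depth behind each value is unknown; a rough estimate from the smallest values put the relative depth at 0.914, 1.18 and 1.39 in Fra-2tg libraries and at 1.00, 0.908 and 0.83 in WT libraries. As a check of the tissue, the surfactant gene Sftpb averaged 3547 FPKM in Fra-2tg and 2412 FPKM in WT lungs. Fosl2, the gene of Fra-2, was listed at 12.3, 17.4 and 15.8 FPKM in Fra-2tg lungs and at 11.1, 13.9 and 11.2 FPKM in WT lungs, so its ranges overlapped and this row does not check the labels. Its relative Fosl1 was listed at 39.9, 44.4 and 46.0 FPKM in Fra-2tg lungs, against 0.0271, 8.23 and 0.0631 FPKM in WT lungs, so WT replicate 2 stood apart from the other WT libraries at this gene. That library also correlated more closely with the Fra-2tg libraries (0.956 to 0.961) than WT replicates 1 and 3 did (0.932 to 0.948), and what sets it apart was not tested. Without it 5 of the 10 genes were called lower, and 1517 of all genes tested, against 1936 with it. Of 14855 genes tested, 13.6% were called higher and 13% were called lower in Fra-2tg lungs (limma on log2(FPKM + 1), Benjamini-Hochberg adjusted p under 0.05). The median log2 fold change of all genes tested was 0.0026, and it was -0.13 when libraries were set to equal sums without the surfactant gene Sftpc and the club cell gene Scgb1a1. These 2 genes were left out of the sums because every Fra-2tg library lists Sftpc at 0, and Scgb1a1 has a 0 in Fra-2tg replicate 2 and WT replicate 1, while elsewhere they reach 33559 and 121243 FPKM. Sums that include them therefore move with these listings.

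Of the 10 genes, 7 fell in Fra-2tg lungs, namely Cdo1, Mettl7a1, Fgfr4, Npnt, G0s2, Limch1 and Tcf21, and none was called higher. Among all tested genes 13% were called lower and 26.7% in either direction. The 10 genes were chosen with earlier results of these data known. For 9 of the 10 every Fra-2tg library lay below every WT library, where 22.4% of all tested genes did so. Cdo1, Mettl7a1 and Fgfr4 were called lower with a log2 fold change of -1 or below, which 1.74% of tested genes were. Inmt and Macf1 missed the threshold with ranges that did not overlap, and Gyg missed it with ranges that overlapped and a mean that was higher in Fra-2tg lungs. The median log2 fold change over the 10 genes was -0.58, against 0.0026 over all genes tested. Within groups, Fra-2tg replicate 2 held the lowest Fra-2tg value for 6 of the 10 genes, and WT replicate 1 the lowest WT value for 9. The count of calls fell when some single libraries were left out. It was 5 lower without Fra-2tg replicate 1 or without WT replicate 2, and 4 without WT replicate 3. The last of these libraries held the highest WT value for 6 of the 10 genes. Over all tested genes 1936 were called lower with every library. That count was 1352 without Fra-2tg replicate 1, 1517 without WT replicate 2 and 1141 without WT replicate 3.

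**Figure D1:**
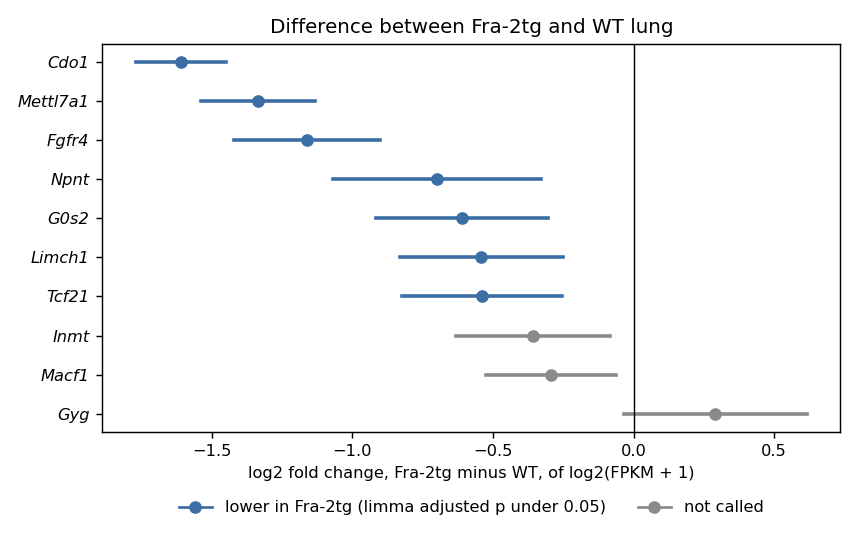
Log2 fold change (Fra-2tg minus WT, of log2(FPKM + 1)) of each gene with its 95% interval from limma, 3 lungs per group, ordered by size. Intervals of the 7 called genes (blue) lie left of 0 from Cdo1 at -1.61 to Tcf21 at -0.54, and that of Gyg (grey) crosses 0. Those of Inmt and Macf1 (grey, not called) also lie left of 0. Intervals are not adjusted for the number of genes tested, while calls are.

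Tcf21 (chromosome 10, 22817281 to 22820174, minus strand, GRCm38), the transcription factor of the lineage, had 54.4, 44.0 and 61.5 FPKM in Fra-2tg lungs, against 74.6, 81.0 and 76.1 FPKM in WT lungs. The 3 Fra-2tg lungs spread more widely than the 3 WT lungs, and all lay below them. The means were 53.3 ± 8.81 FPKM in Fra-2tg and 77.2 ± 3.32 FPKM in WT (SD, n = 3 each). The log2 fold change was -0.54 ± 0.12 (SE, limma adjusted p = 0.0187). This call did not hold without Fra-2tg replicate 1 (limma adjusted p = 0.0511), without WT replicate 2 (limma adjusted p = 0.0530) or without WT replicate 3 (limma adjusted p = 0.0592).

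Its partners and relatives moved little as a group: of 11 tested genes of 14, 2 rose, 1 fell and 8 were not called, with a median log2 fold change of 0.01. The E proteins Tcf3, Tcf4 and Tcf12, with which TCF21 pairs, were not called; Tcf3 averaged 28.7 FPKM in Fra-2tg and 28.5 FPKM in WT lungs. Id1 and Id4, which encode inhibitors that bind E proteins away from DNA, rose to 1.33 and 1.36 times their WT levels (limma adjusted p = 0.0144 and 0.0209). With equal library sums Id1 was not called (limma adjusted p = 0.0594). The call of Id4 was lost without any 1 of 4 libraries (Fra-2tg replicate 1, 2 or 3, or WT replicate 3). Tcf23, another basic helix-loop-helix gene, fell to 0.203 FPKM in Fra-2tg, against 1.31 FPKM in WT lungs (limma adjusted p = 0.0148), and was not called without Fra-2tg replicate 1 (limma adjusted p = 0.0528).

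The tested genes whose pattern over the 6 libraries was nearest to that of Tcf21 were Ghr, Flt4, Btbd3, Fam198b and Tns3, by Euclidean distance between row-centred log2 values, from 0.112 for Ghr to 0.155 for Tns3. Ghr, the growth hormone receptor, had 24.5, 20.3 and 26.6 FPKM in Fra-2tg lungs, against 32.8, 37.9 and 36.1 FPKM in WT lungs. Like Tcf21, all 5 were lowest in Fra-2tg replicate 2, which follows largely from their choice by nearness to Tcf21 over these same libraries. Among 13103 genes ranked, Limch1 came 38th and Npnt 52nd, at distances of 0.244 and 0.255. Macf1 came 781st, Inmt 1151st and G0s2 1944th. Farther off were Fgfr4 at rank 6282, Gyg at 10120 and Mettl7a1 at 10365. Cdo1 was the farthest of the 9 other genes, at rank 11928 and a distance of 1.38.

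Fgfr4 (chromosome 13, 55152640 to 55168759, plus strand), a receptor tyrosine kinase for fibroblast growth factors, was the least abundant of the 10 in both groups. It had 9.46, 6.98 and 8.80 FPKM in Fra-2tg lungs, against 19.2, 19.4 and 21.2 FPKM in WT lungs, so the highest Fra-2tg lung was below the lowest WT lung by a wide margin. The means of 8.42 ± 1.29 FPKM in Fra-2tg and 19.9 ± 1.09 FPKM in WT (SD, n = 3 each) gave a ratio of 0.422 and a log2 fold change of -1.16 ± 0.11 (SE, limma adjusted p = 0.00153).

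Among the other FGF receptors and lung FGF ligands, 9 of 12 passed the filter, 4 of them fell and none rose, with a median log2 fold change of -0.30. Fgf10, the mesenchymal ligand that drives epithelial branching, had 1.60, 1.67 and 1.99 FPKM in Fra-2tg lungs, against 3.50, 3.68 and 4.69 FPKM in WT lungs (limma adjusted p = 0.0036). Fgfr3 averaged 41.3 FPKM in Fra-2tg and 56.7 FPKM in WT lungs (limma adjusted p = 0.0070). Fgf2 fell to 0.471 and Fgf1 to 0.732 times the WT level (limma adjusted p = 0.0116 and 0.0154), the call of Fgf1 being lost without WT replicate 3 (limma adjusted p = 0.0595). Fgfr1 was near equal at 24.6 FPKM in Fra-2tg and 24.8 FPKM in WT lungs, and Fgfr2 was not called. The klotho co-receptors Klb and Kl were below the filter, each at most 0.504 FPKM in any library.

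The windows of 250 bases before the start sites of the transcription factor Tcf21, and of Fgfr4 and Mettl7a1 as members lower by more than 1 on the log2 scale, are shown because TCF21 acts at E-boxes, Fra-2 at AP-1 motifs, and the 3 genes were lower together. Cdo1, also lower by more than 1 on that scale, had no window among those found. Sequences are those of RefSeq on GRCm38.p6, written 5′ to 3′ along the gene, at chr10:22820144-22820393 (minus), chr13:55152568-55152817 (plus) and chr15:100304567-100304816 (plus). These RefSeq starts lie inside the GENCODE spans given for the genes, so the Mettl7a1 window falls wholly, and the others partly, within the annotated gene. Capitals mark the E-box, CANNTG.
Tcf21: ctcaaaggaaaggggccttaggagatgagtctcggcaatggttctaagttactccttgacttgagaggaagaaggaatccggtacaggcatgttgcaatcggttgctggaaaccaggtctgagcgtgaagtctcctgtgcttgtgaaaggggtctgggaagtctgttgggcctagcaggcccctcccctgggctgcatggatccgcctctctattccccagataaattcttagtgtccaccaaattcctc
Fgfr4: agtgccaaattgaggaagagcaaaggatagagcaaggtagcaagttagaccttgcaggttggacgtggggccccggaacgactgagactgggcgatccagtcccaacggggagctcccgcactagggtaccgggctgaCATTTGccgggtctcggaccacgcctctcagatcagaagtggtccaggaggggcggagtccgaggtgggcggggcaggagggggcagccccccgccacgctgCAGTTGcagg
Mettl7a1: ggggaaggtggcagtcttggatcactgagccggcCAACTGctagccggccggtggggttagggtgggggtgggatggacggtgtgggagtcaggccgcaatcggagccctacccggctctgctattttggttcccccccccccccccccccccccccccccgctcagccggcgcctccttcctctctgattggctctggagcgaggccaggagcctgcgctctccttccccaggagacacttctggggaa

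The Tcf21 window holds no E-box, that of Fgfr4 holds 2, with first bases 112 and 10 bases before the start, and that of Mettl7a1 holds 1, at 216 bases before it. The 12 windows found cover 9 of the 10 genes, all but Cdo1. Of these windows 9 hold an E-box (75%), while 66.2% of all 32851 windows of this length and 58.8% of the 13182 of tested genes do. The AP-1 motif searched, TGANTCA, is in 0 of the 12 windows, in 6.75% of all windows and in 4.95% of those of tested genes. Both motifs read the same on either strand, and neither overlaps the other in these windows. A match describes letters only, and its absence says nothing of binding by the factor elsewhere.

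Npnt (chromosome 3, 132881745 to 132950291, minus strand) encodes nephronectin, a basement membrane protein that binds integrin α8β1. It had 127.7, 96.2 and 144.5 FPKM in Fra-2tg lungs, against 176, 213 and 204 FPKM in WT lungs. Fra-2tg replicate 2 was the lowest, and the groups did not overlap. The log2 fold change was -0.70 ± 0.16 (SE, limma adjusted p = 0.019), and the call was lost without WT replicate 2 (limma adjusted p = 0.0536) or WT replicate 3 (limma adjusted p = 0.0675). Of 8 tested receptors and partners of nephronectin, 2 rose, none fell and 6 were not called. Egfl6, a relative of nephronectin, had 60.0, 49.9 and 52.3 FPKM in Fra-2tg lungs, against 13.4, 26.1 and 16.7 FPKM in WT lungs, 2.88 times as much (limma adjusted p = 0.00437). Npnt and Egfl6 thus differed between groups in opposite directions. The α8 chain gene Itga8 averaged 29.7 FPKM in Fra-2tg and 39.0 FPKM in WT lungs and was not called (limma adjusted p = 0.116), and Itgav rose to 1.46 times the WT level (limma adjusted p = 0.0311), a call that was lost without any 1 library other than Fra-2tg replicate 2.

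Limch1 and Macf1 encode large proteins of the cytoskeleton. Limch1 (chromosome 5, 66745827 to 67057158, plus strand), which in human cells promotes the activity of non-muscle myosin, had 93.0, 77.9 and 100.6 FPKM in Fra-2tg lungs, against 117, 131 and 148 FPKM in WT lungs. The groups did not overlap, and the log2 fold change was -0.54 ± 0.12 (SE, limma adjusted p = 0.0194). Without Fra-2tg replicate 1 the adjusted p of limma was 0.0523 and without WT replicate 3 it was 0.0643. Macf1 (chromosome 4, 123349633 to 123684360, minus strand), a plakin that links microtubules to actin, had 50.9, 46.4 and 53.0 FPKM in Fra-2tg lungs, against 55.3, 60.2 and 69.8 FPKM in WT lungs. All 3 Fra-2tg values lay below the lowest WT value, by a small margin, and the log2 fold change of -0.29 had a 95% interval of -0.52 to -0.06 (limma adjusted p = 0.0667). Macf1 was called lower under 2 of 17 alternative fits, 1 of them without WT replicate 1 (limma adjusted p = 0.0443). Without WT replicate 3 it was not (limma adjusted p = 0.159).

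Other plakins and linkers were mixed, with 1 higher, 4 lower and 10 not called of 15 tested. Plec, the plakin plectin, had 40.0, 34.0 and 42.7 FPKM in Fra-2tg lungs, against 24.0, 24.9 and 23.3 FPKM in WT lungs (limma adjusted p = 0.00342). Camsap3, which binds microtubule minus ends, fell to 4.75 FPKM in Fra-2tg, against 8.17 FPKM in WT lungs (limma adjusted p = 0.00343). The LIM protein gene Lmo7 fell to 0.733 and the plakin gene Evpl to 0.638 times the WT level (limma adjusted p = 0.0167 and 0.0102), and the call of Lmo7 was lost without Fra-2tg replicate 1 (limma adjusted p = 0.0599). Clip1, which tracks growing microtubule ends, fell to 0.738 times the WT level (limma adjusted p = 0.0235), and was not called without Fra-2tg replicate 1 or 2.

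Cdo1 (chromosome 18, 46713193 to 46728395, minus strand) had the largest log2 fold change of the 10 genes. It encodes cysteine dioxygenase, which oxidises cysteine in the first step towards taurine. It had 41.7, 43.3 and 41.4 FPKM in Fra-2tg lungs, against 125, 125 and 142 FPKM in WT lungs. The 3 Fra-2tg lungs were nearly equal, and WT values were all far above them. The means were 42.1 ± 1.00 FPKM in Fra-2tg and 131 ± 9.95 FPKM in WT (SD, n = 3 each), with a ratio of 0.322. The log2 fold change was -1.61 ± 0.07 (SE, limma adjusted p = 0.000129).

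In the rest of cysteine and taurine metabolism, 4 genes fell, 2 rose and 8 were not called of 14 tested. Csad, the enzyme that follows CDO1 towards taurine, fell to 21.9 FPKM in Fra-2tg, against 27.9 FPKM in WT lungs (limma adjusted p = 0.0072). Cth and Cbs, which make cysteine from homocysteine, fell to 0.425 and 0.374 times the WT level (limma adjusted p = 0.00235 and 0.0112). Sqrdl, of sulfide oxidation, fell to 0.784 times that level (limma adjusted p = 0.0105). With equal library sums Csad and Sqrdl were not called (limma adjusted p = 0.0812 and 0.0807), nor were the 2 that rose, which left 2 lower and 0 higher. Got1 and Gclc rose to 1.48 and 1.29 times the WT level (limma adjusted p = 0.0283 and 0.0326), and neither was called without any 1 of the 3 WT libraries, Got1 also not without Fra-2tg replicate 1 and Gclc not without Fra-2tg replicate 3. Ado, the other thiol dioxygenase, averaged 8.42 FPKM in Fra-2tg and 7.88 FPKM in WT lungs and was not called.

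Mettl7a1 (chromosome 15, 100304140 to 100328662, plus strand) encodes a methyltransferase-like protein whose human relative METTL7A sits in the endoplasmic reticulum and on lipid droplets. It had 107, 112 and 109 FPKM in Fra-2tg lungs, against 266, 255 and 312 FPKM in WT lungs. As with Cdo1, the Fra-2tg lungs were close together and far below WT. The ratio of the means was 0.393 and the log2 fold change -1.33 ± 0.09 (SE, limma adjusted p = 0.000574). The related genes Mettl7a3 and Mettl7a2 follow it on the same strand. Mettl7a3 reached at most 0.246 FPKM in Fra-2tg and 1.02 FPKM in WT lungs and Mettl7a2 at most 0.0998 FPKM in Fra-2tg and 0.219 FPKM in WT lungs, below the filter. No source used here says how reads shared between near-identical copies were assigned, so the level of Mettl7a1 is uncertain to that extent.

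Inmt (chromosome 6, 55170626 to 55175043, minus strand) encodes indolethylamine N-methyltransferase, which methylates tryptamine and related amines, and was the most abundant of the 10 in both groups. It had 1693, 1564 and 1479 FPKM in Fra-2tg lungs, against 1865, 2010.3 and 2205 FPKM in WT lungs. All Fra-2tg values were below all WT values, and the means were 1579 ± 108 FPKM in Fra-2tg and 2027 ± 171 FPKM in WT (SD, n = 3 each). The log2 fold change of -0.36 had a 95% interval of -0.63 to -0.09 and missed the threshold (limma adjusted p = 0.0605). Inmt was called lower under 4 of 17 alternative fits, among them that with a filter at a mean of 5 FPKM (limma adjusted p = 0.0345). With no filter it was not (limma adjusted p = 0.16). Other genes of methyl transfer from S-adenosylmethionine were mostly not called, with 1 higher, 1 lower and 12 not called of 14 tested. Ahcyl2 had 42.2, 42.7 and 44.3 FPKM in Fra-2tg lungs, against 19.4, 24.1 and 21.0 FPKM in WT lungs (limma adjusted p = 0.00129). Pnmt, at 0.199 FPKM in Fra-2tg and 0.855 FPKM in WT lungs, was the gene called lower (limma adjusted p = 0.0133), and without any 1 WT library it was below the filter.

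**Figure D2:**
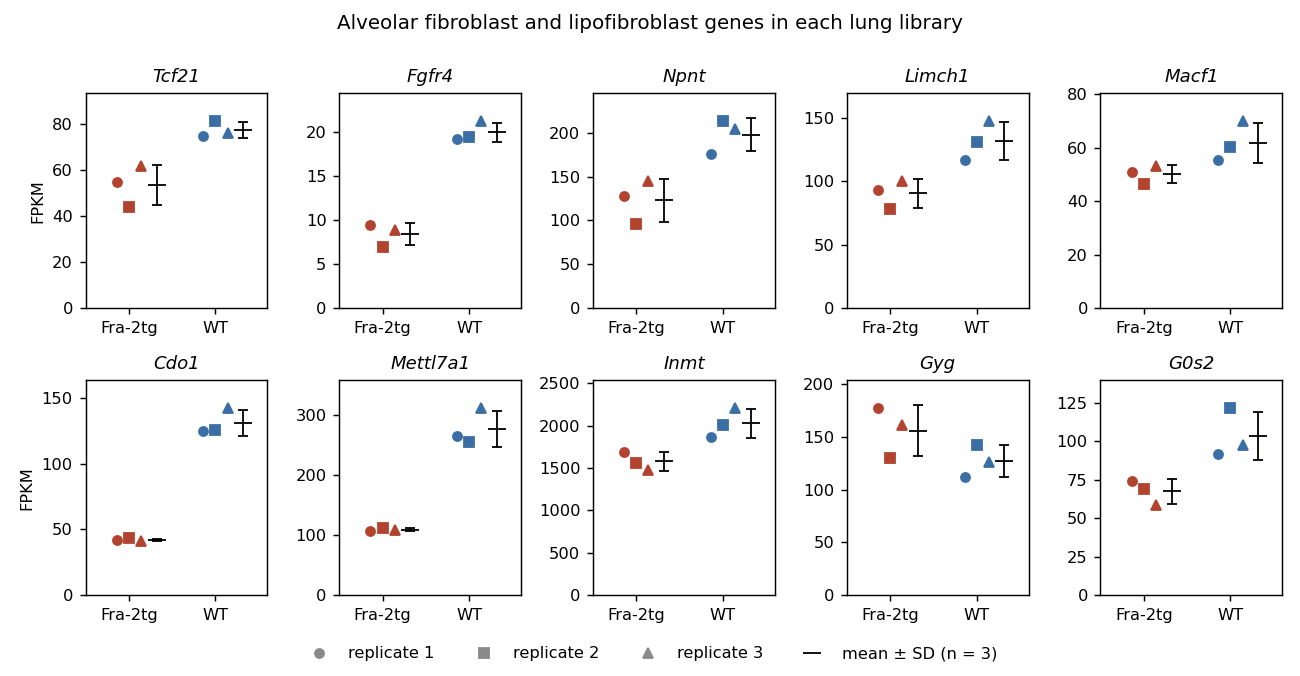
FPKM of each of the 10 genes in every lung library, Fra-2tg left and WT right, with points for mice and bars for group means with SD (n = 3 each), on axes that start at 0. The Fra-2tg points lie below the WT points in 9 panels and overlap them for Gyg.

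G0s2 (chromosome 1, 193272161 to 193273217, minus strand) encodes an inhibitor of adipose triglyceride lipase, the product of Pnpla2, which opens the breakdown of stored triglyceride. It had 74.4, 69.1 and 58.8 FPKM in Fra-2tg lungs, against 92.0, 121 and 97.7 FPKM in WT lungs. The groups did not overlap, and the log2 fold change was -0.61 ± 0.13 (SE, limma adjusted p = 0.016). Lamb3, on the opposite strand, is the only gene of the table whose annotated span overlaps any of the 10, and it shares no exon base with G0s2. Of 11 tested genes of lipolysis and its regulators, 6 fell, 2 rose and 3 were not called, with a median log2 fold change of -0.46. Cidec and Plin1 of this list are also fat cell markers, of which 7 of 9 tested fell, with a median log2 fold change of -1.22; their part in the result was not tested. Pnpla2 itself had 49.1, 49.8 and 46.0 FPKM in Fra-2tg lungs, against 67.6, 66.8 and 65.5 FPKM in WT lungs (limma adjusted p = 0.00246). The lipase inhibitor and its target thus were both lower. Hilpda, another inhibitor of that lipase, fell to 53.2 FPKM in Fra-2tg, against 144.9 FPKM in WT lungs (limma adjusted p = 0.00118). Mgll, the monoacylglycerol lipase, fell to 0.512 times the WT level (limma adjusted p = 0.00109) and Cidec, of lipid droplet fusion, to 0.387 times (limma adjusted p = 0.00182). The 2 that rose were Plin3 and Pnpla3, at 1.18 and 1.72 times the WT level (limma adjusted p = 0.0256 and 0.0164), and neither was called without Fra-2tg replicate 1 or without WT replicate 3, Plin3 also not without Fra-2tg replicate 2 or WT replicate 1.

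Genes of lipid uptake, droplets and the lipofibroblast programme did not follow the 10 genes: of 15 tested, 7 rose, 2 fell and 6 were not called, with a median log2 fold change of 0.32. Pparg, the nuclear receptor of fat storage, had 8.56, 7.74 and 7.66 FPKM in Fra-2tg lungs, against 4.85, 4.82 and 5.29 FPKM in WT lungs (limma adjusted p = 0.00274). Pth1r, the receptor through which epithelial parathyroid hormone-related protein acts on lipofibroblasts, averaged 6.84 FPKM in Fra-2tg and 4.18 FPKM in WT lungs (limma adjusted p = 0.0024). Cebpa and Lpl rose to 1.45 and 1.60 times the WT level (limma adjusted p = 0.00317 and 0.00432). Lipa and Zfp423, also among the 7, lost their calls without Fra-2tg replicate 1, Fra-2tg replicate 3, WT replicate 2 or WT replicate 3, and Lipa without WT replicate 1. The 2 that fell were Cd36 and Dgat2, to 0.626 and 0.689 times the WT level (limma adjusted p = 0.00942 and 0.016), Dgat2 losing its call without Fra-2tg replicate 1 (limma adjusted p = 0.0538). Several of these genes are also expressed in alveolar macrophages, and of 10 macrophage markers 8 rose and none fell. Their summed level was 1798 to 4057 FPKM in Fra-2tg lungs, against 358 to 815 FPKM in WT lungs, and their part in the result was not tested. Lpl and Fabp4 stand in both lists.

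Gyg (chromosome 3, 20122084 to 20155317, minus strand) encodes glycogenin, the protein on which glycogen synthesis starts. It had 177, 129.5 and 161 FPKM in Fra-2tg lungs, against 112, 142.6 and 126 FPKM in WT lungs. Fra-2tg replicate 2 lay between WT values, so the groups overlapped. The log2 fold change was 0.29 with a 95% interval of -0.04 to 0.62 (limma adjusted p = 0.161). Of 18 tested genes of glycogen metabolism, 5 fell, none rose and 13 were not called, with a median log2 fold change of -0.11. Pygm, a glycogen phosphorylase, had 10.9, 7.96 and 9.39 FPKM in Fra-2tg lungs, against 15.3, 16.3 and 17.1 FPKM in WT lungs (limma adjusted p = 0.00499). Ppp1r3c, which brings a phosphatase to glycogen, fell to 0.516 times the WT level (limma adjusted p = 0.0137). Pygl, Phkg1 and Nhlrc1 made up the 5, and the calls of all 3 were lost without Fra-2tg replicate 1, without WT replicate 3 or with equal library sums, where 2 genes of the list were called. Without Fra-2tg replicate 3 or WT replicate 1, or with the replicate block, 3 were called, and Pygl lost its call without WT replicate 2 as well. The synthase gene Gys1 averaged 11.5 FPKM in both groups and was not called (limma adjusted p = 0.944).

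Set in order of mean FPKM, the 10 genes in Fra-2tg lungs ran Inmt, Gyg, Npnt, Mettl7a1, Limch1, G0s2, Tcf21, Macf1, Cdo1 and Fgfr4, and in WT lungs Inmt, Mettl7a1, Npnt, Limch1, Cdo1, Gyg, G0s2, Tcf21, Macf1 and Fgfr4. Inmt and Fgfr4 thus held the ends in both groups. Cdo1 stood 9th in Fra-2tg and 5th in WT lungs, Mettl7a1 4th and 2nd, and Gyg 2nd and 6th. Neighbours whose ranges over the 3 lungs overlapped were, in Fra-2tg lungs, Gyg with Npnt, Npnt with Mettl7a1, G0s2 with Tcf21, and Tcf21 with Macf1. In WT lungs they were Limch1 with Cdo1, Cdo1 with Gyg, and Gyg with G0s2.

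Relative to Tcf21 in the same library, the 9 other genes fell into 3 kinds. Cdo1 per Tcf21 was 0.765, 0.985 and 0.674 in Fra-2tg lungs, against 1.67, 1.55 and 1.87 in WT lungs. Mettl7a1 per Tcf21 averaged 2.09 ± 0.402 in Fra-2tg and 3.61 ± 0.473 in WT lungs, and Fgfr4 per Tcf21 0.159 ± 0.0153 in Fra-2tg and 0.258 ± 0.0195 in WT lungs (SD, n = 3 each). These 3 genes lay lower relative to Tcf21 in Fra-2tg lungs, with no overlap, as did Npnt by a narrow margin, at most 2.35 in Fra-2tg and at least 2.36 in WT lungs. For Inmt, Limch1, Macf1 and G0s2 the ratios of the groups overlapped; Limch1 per Tcf21 averaged 1.71 ± 0.0678 in Fra-2tg and 1.71 ± 0.201 in WT lungs (SD, n = 3 each). Gyg per Tcf21 was higher in every Fra-2tg lung, at 3.25, 2.95 and 2.63, against 1.50, 1.76 and 1.66 in WT lungs. The ratios are a description, with no test, and all 9 share the Tcf21 value of each library. Tcf21 itself averaged 53.3 FPKM in Fra-2tg and 77.2 FPKM in WT lungs. Every ratio is thereby raised in Fra-2tg lungs, also that of a gene equal in both groups. The FPKM values of Gyg itself overlapped between groups. What share of all tested genes separates the groups relative to Tcf21 was not computed.

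**Figure D3:**
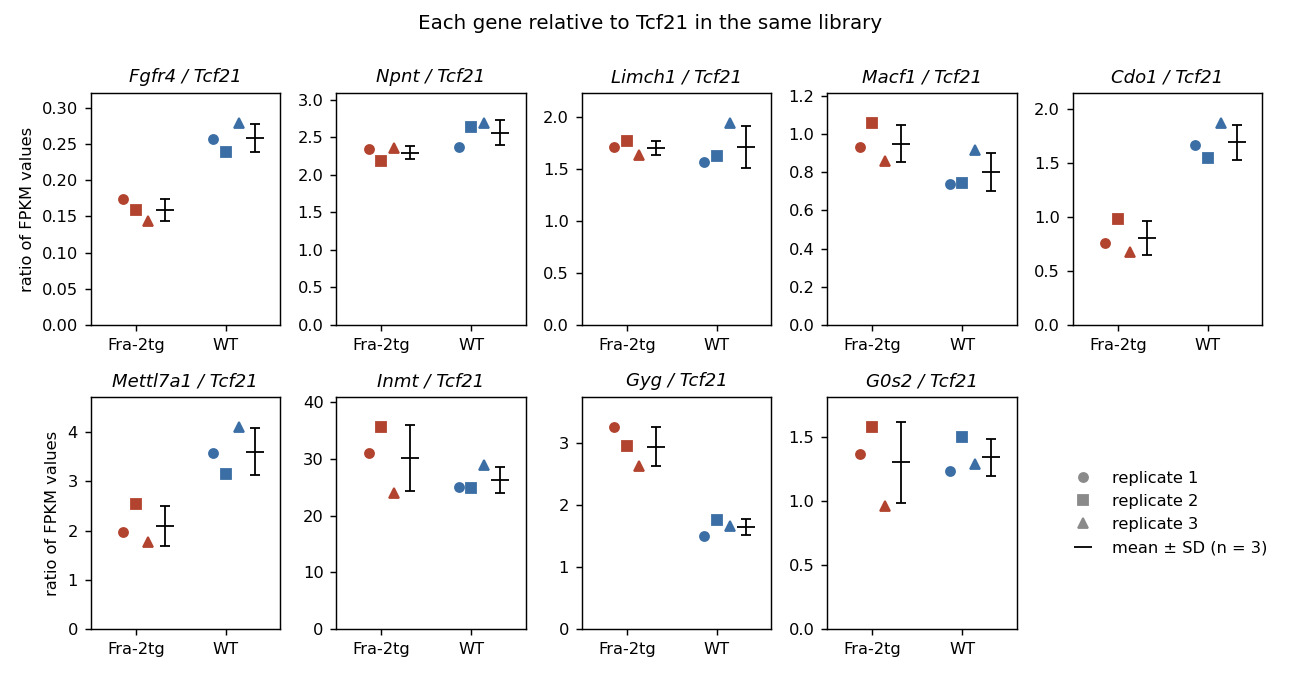
FPKM of each of the 9 other genes divided by that of Tcf21 in the same library, Fra-2tg left and WT right, with points for mice and bars for means with SD (n = 3 each). Fgfr4, Npnt, Mettl7a1 and Cdo1 lie lower in Fra-2tg without overlap, Gyg lies higher, and the other 4 overlap.

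Other markers of alveolar fibroblasts, not among the 10, were mostly lower. Of 20 tested, 12 fell, 2 rose and 6 were not called, with a median log2 fold change of -0.62. Of all tested genes 13% were called lower and 13.6% higher. This list was chosen with earlier results of these data known, so its counts are not independent of them. Pdgfra, the receptor for platelet-derived growth factor that marks alveolar fibroblasts, had 26.5, 29.5 and 31.5 FPKM in Fra-2tg lungs, against 47.6, 52.1 and 57.3 FPKM in WT lungs (limma adjusted p = 0.00216). Slc7a10, an amino acid transporter, had 12.9, 10.9 and 11.2 FPKM in Fra-2tg lungs, against 33.2, 35.5 and 38.3 FPKM in WT lungs (limma adjusted p = 0.000388). Both genes separated the groups by more than the spread within either. Spon1, a matrix protein, and Fmo2, a flavin monooxygenase, fell to 0.544 and 0.393 times the WT level (limma adjusted p = 0.00077 and 0.00212). Nkd1, also among the 12, lost its call without Fra-2tg replicate 1, WT replicate 2 or WT replicate 3. The 2 that rose were Adh1 and Gpc3, at 1.62 and 1.28 times the WT level (limma adjusted p = 0.0247 and 0.0433). Neither was called in the fit with the replicate number as a block or without Fra-2tg replicate 1, Fra-2tg replicate 3, WT replicate 1 or WT replicate 3. Mfap4, the most abundant of the list, averaged 749 FPKM in Fra-2tg and 795 FPKM in WT lungs and was not called (limma adjusted p = 0.531).

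Fibroblast genes did not all move this way. Of 12 markers shared by fibroblasts in general 9 rose and none fell; Vim, encoding vimentin, averaged 1235 FPKM in Fra-2tg and 564 FPKM in WT lungs (limma adjusted p = 0.00274), and Mfap5, of elastic microfibrils, rose to 2.87 times the WT level (limma adjusted p = 0.00215). That count was 5 without any 1 of Fra-2tg replicate 1, Fra-2tg replicate 3, WT replicate 1 or WT replicate 3. Macrophage markers rose as well, 8 of 10, and their part in the level of these general markers was not tested. Of 12 markers of activated fibroblasts 8 rose and 4 fell, Eln, encoding elastin, at 3.13 times the WT level (limma adjusted p = 0.00225). Those that fell were Spp1 and Hhip, to 0.33 and 0.457 times the WT level (limma adjusted p = 0.0038 and 0.0025), with Postn and Acta2 (limma adjusted p = 0.0103 and 0.0415). Acta2 lost its call without any 1 library other than Fra-2tg replicate 2. The count of 8 was 4 without Fra-2tg replicate 1, Fra-2tg replicate 3 or WT replicate 3, and 5 without WT replicate 1. Of 12 adventitial markers 3 rose and 4 fell, with Dpt at 1.95 and Pi16 at 0.644 times the WT level (limma adjusted p = 0.00172 and 0.00158).

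**Figure D4:**
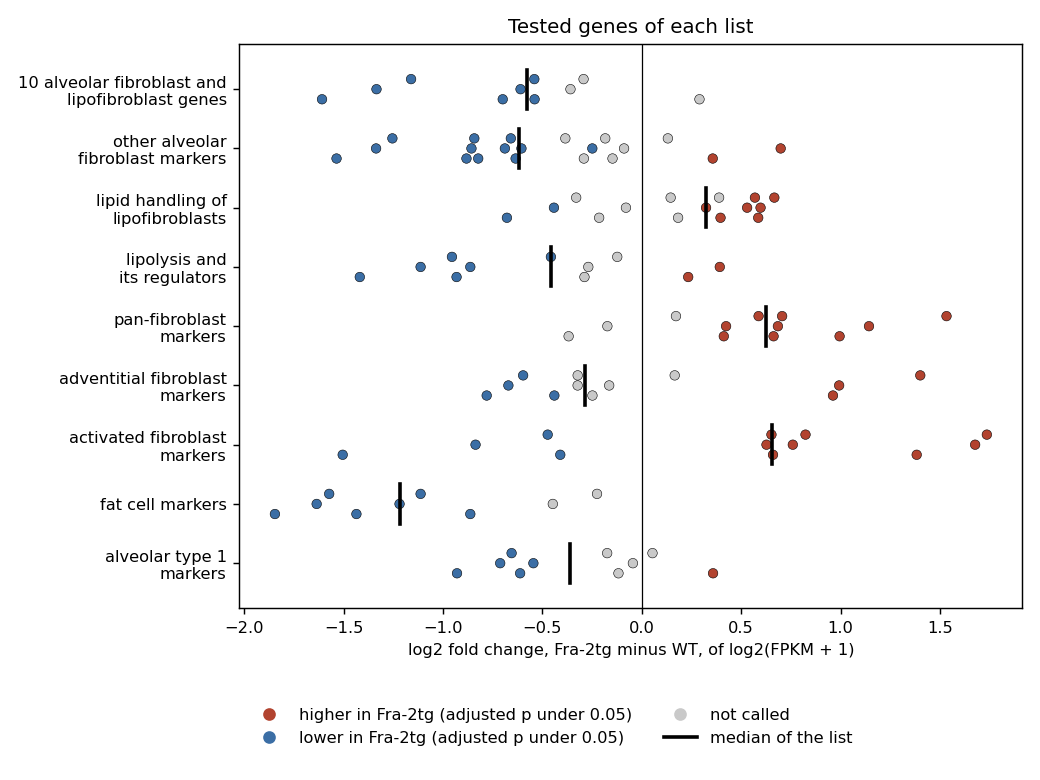
Log2 fold change (Fra-2tg minus WT, of log2(FPKM + 1)) of every tested gene of each list, 1 row per list; red points were called higher, blue points lower and grey points neither, and the bar is the list's median. The 10 genes and the other alveolar fibroblast markers centre at -0.58 and -0.62, and the list of fibroblasts in general centres at 0.63.

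Markers of other cell types that express some of the 10 genes also differed. Of 9 tested fat cell markers 7 fell and none rose, and their summed level was 21.7 to 26.2 FPKM in Fra-2tg lungs, against 62.6 to 97.9 FPKM in WT lungs. Lep and Ucp1 were listed at 0 in a library, and Adipoq averaged 0.859 FPKM in Fra-2tg and 4.06 FPKM in WT lungs. G0s2 and Cdo1 are known from fat tissue as well. Of 10 alveolar type 1 markers 5 fell, 1 rose and 4 were not called, with summed levels of 3661 to 4016 FPKM in Fra-2tg and 4420 to 4756 FPKM in WT lungs, and of 10 endothelial markers 5 fell, 1 rose and 4 were not called, at 1838 to 1935 FPKM in Fra-2tg and 2142 to 2318 FPKM in WT lungs. Npnt and Limch1 are expressed in type 1 cells too, and Hopx, a type 1 marker, fell to 0.61 times the WT level (limma adjusted p = 0.00215). Of 10 type 2 markers 7 rose and 1 fell, of 10 smooth muscle and pericyte markers 2 rose and 4 fell, and of 8 mesothelial markers 2 rose and 2 fell. The count of higher type 2 markers was 4 without Fra-2tg replicate 1, Fra-2tg replicate 3 or WT replicate 3, and that of mesothelial markers 0 without Fra-2tg replicate 1 or WT replicate 3 and 1 without Fra-2tg replicate 2, WT replicate 1 or WT replicate 2. The count of lower mesothelial markers was 1 without Fra-2tg replicate 1, Fra-2tg replicate 2 or WT replicate 1, and that of higher smooth muscle and pericyte markers 1 without Fra-2tg replicate 1, Fra-2tg replicate 2 or WT replicate 3. The type 1 marker that rose, Aqp5, lost its call without any 1 library other than WT replicate 2. The part of these cell types in the lower level of the 10 genes was not tested.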

How the data were processed

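Lung RNA was made into poly(A)-selected, strand-specific libraries, per the labels' protocols. The authors deposited a table of FPKM per gene. The submitters' processing notes name Cufflinks 2.2.1, TopHat2 2.0.10, SAMtools 0.1.19, Bowtie 1.0.0 and FastQC, and the build GRCm38. No source used here says how multiply mapped reads were split. The log2(FPKM + 1) values of genes averaging 0.5 FPKM or more were fitted with limma (version 3.58.1, R version 4.3.3) with a variance trend and no block. Tests were two-sided, adjusted by Benjamini-Hochberg over 14855 genes and called at an adjusted p under 0.05. Fold changes on this scale understate those of low genes. P-values measure the spread between the lungs of 3 mice per group. The fit was tested on simulated data. Gene coordinates are from GENCODE M21.

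The members and lists were chosen with earlier results of these data known. Named genes were the members, genes from among the up to 4 called genes of each list with the smallest adjusted p, and the 5 genes nearest to Tcf21. Not all of those list genes are printed, and for some cell types none is. Some called genes of a direction with 5 or fewer calls, and list genes with a role next to a member, were named after their values were seen. Alternatives were other pseudocounts, filters, scalings, a replicate block, robust or untrended moderation, library weights and each library left out; their values for list genes and list counts were added after seeing the data.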

Additional observations from a re-analysis of the deposited data

How the results depend on the processing

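Cdo1, Mettl7a1, Fgfr4 and G0s2 were called lower under all 17 alternatives and Gyg under none. Of 170 values of a gene under an alternative 157 kept direction and side of the threshold, 7 lost the call, 6 gained it and 0 reversed. With either other filter, the replicate block, robust moderation or no trend, log2 fold changes equal those of the main fit by construction. Direction could not reverse in these fits, and all 17 draw on the same libraries. With each library left out in turn, 4 to 8 of the 10 genes were called lower, 1141 to 1709 of all tested genes lower and 1088 to 1695 higher, and of the other alveolar fibroblast markers 10 to 12 lower and 0 to 2 higher. Equal library sums, which move with Sftpc and Scgb1a1 being listed at 0 in some libraries, gave 1169 genes lower and 1132 higher; leaving Sftpc and Scgb1a1 out of those sums gave 3437 lower and 1148 higher, with 9 of the 10 genes lower, Inmt (limma adjusted p = 0.0104) and Macf1 (limma adjusted p = 0.0351) added. Inmt was also called with robust moderation (limma adjusted p = 0.0358) and without a trend (limma adjusted p = 0.0286). Requiring a log2 fold change of at least 1 in size as well left 3 of the 10 genes lower, and 1.74% of all tested genes. The deviations of same-numbered libraries from their group means correlated at -0.054, 0.014 and 0.163, and those of other-numbered libraries at -0.22 to 0.186. With 3 libraries per group these values cannot tell whether the numbers pair the mice. With the replicate block 7 of the 10 genes and 12 of the other alveolar fibroblast markers were lower, and 0 of those markers higher. Over all tested genes that fit called 1651 lower and 1890 higher. The cause of these shifts was not tested. Depth is known only as a rough ratio between libraries, so its limit on single values could not be given.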
